A study of Mus musculus with 119 samples.

Results

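Rnd1, Tmie and Vxn are 3 genes of the 55291 measured by RNA-seq in mouse brain punches after adolescent exposure to delta-9-tetrahydrocannabinol (THC), the main psychoactive compound of cannabis. They were chosen by their measured difference between THC and vehicle, which passed the thresholds in both the female amygdala (Amy) and the male nucleus accumbens (NAc). By DESeq2, with an adjusted p under 0.05 and a log2 fold change of 0.4 or more in either direction, 546 genes were called in the female Amy, 20 were called in the male NAc, and the 3 called in both were Rnd1, Tmie and Vxn. They made up 0.549% of the first list and 15% of the second. The female Amy and male NAc differences are therefore given below as a description, and tests are given only for regions, sexes and contrasts that did not pick the genes.

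The mice were labelled as the C57BL/6J strain, while the methods of the study name C57BL/6NCrl, and the labels give their age as 11 weeks while the methods place brain collection in week 12. Vehicle or THC at 10 mg/kg was given daily by intraperitoneal injection, the first on postnatal day (PND) 28 and the last on PND 48, and behavior was tested from PND 63. RNA came from the prefrontal cortex (PFC), the striatal punch titled DMS, the NAc, the Amy and the ventral tegmental area (VTA) of females and males. Each of the 20 groups of region, sex and treatment held 6 libraries, except male VTA vehicle with 5, which makes 119 libraries. The titles call the striatal punch DMS, the abbreviation of dorsomedial striatum, whereas the tissue label calls it dorsolateral striatum. By the methods all 5 regions were punched from each brain, so each mouse gave libraries to several regions. Titles give a library number but not the mouse, so libraries could not be matched by mouse, and the region tests below treat them as independent.

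Rnd1 belongs to the Rnd family of small GTPases, switch proteins of the actin cytoskeleton. Rnd proteins hold GTP permanently, are regulated by their amount rather than by nucleotide exchange, and oppose RhoA, and Rnd1 binds plexins, the receptors of the semaphorin guidance cues. Tmie, transmembrane inner ear protein, is a part of the channel complex with which hair cells of the inner ear convert movement into current, and its loss causes deafness in mice. Vxn encodes vexin, known for promoting neuronal differentiation in vertebrate embryos. Each punch is a mixture of cell types, so for all values below fewer cells of a type and less RNA per cell cannot be told apart.

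Levels are given as CPM, expected counts relative to the library total, scaled across all 119 libraries with the trimmed mean of M values. Library totals ran from 3.09e+06 to 7.70e+07 counts, and all 3 genes had reads in every library, with expected counts of 60 to 4727 for Rnd1, 37 to 2498 for Tmie and 69 to 19631 for Vxn. Every one of them passed the filter on low counts in all 10 THC contrasts. The PFC, DMS and VTA punches carried the markers of their regions, and marker levels of the NAc and Amy are given below with their THC contrasts. The summed level of 14 markers of cortical and basolateral projection neurons was 3201 to 3614 CPM in the PFC, that of 15 markers of medium spiny neurons, the output cells of the striatum, was 7398 to 12337 CPM in the DMS, and that of 10 markers of dopaminergic neurons was 1611 to 5033 CPM in the VTA against at most 90.4 CPM elsewhere. In 2 of the 119 libraries the sex-linked genes went against the label, FTL_344 of Female_Amy_THC and FTL_356 of Male_Amy_THC, and the Amy differences and correlations of the 3 genes are given with and without them.

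The genes lie on different chromosomes. In the mouse GRCm38 (mm10) assembly with the GENCODE vM21 annotation, Rnd1 (ENSMUSG00000054855.13) spans chr15:98663421-98677461 on the minus strand, Tmie (ENSMUSG00000049555.10) spans chr9:110865711-110880113 on the minus strand, and Vxn (ENSMUSG00000067879.3) spans chr1:9601199-9627143 on the plus strand. Their longest coding transcripts have 5, 6 and 6 exons and lengths of 2203, 2802 and 3256 nucleotides. Tmie is arranged head to head with Als2cl, and their exons share 244 bases. Vxn shares 452 exonic bases with the antisense transcript 2610203C22Rik. The library kit kept the strand, but whether counting used it is not given in the sources used here, so reads in these stretches may have been assigned to either gene. The antisense transcript was at 0.251 to 0.395 CPM on average in vehicle libraries of the 5 regions, far under Vxn. Als2cl averaged 4.85, 7.22, 9.25, 14.4 and 25.9 CPM from the PFC over the DMS, NAc and Amy to the VTA, the same order of regions as Tmie. Its log2 fold change of THC against vehicle was -0.26 ± 0.09 (SE) in the female Amy and -0.16 ± 0.11 (SE) in the male NAc, and it was called in none of the 10 THC contrasts.

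The stretch shown lies between the annotated start of Tmie and the first exon of the coding Als2cl transcripts. The annotated Als2cl gene begins inside Tmie, at chr9:110879870, and the stretch also lies in the first exon of a noncoding Als2cl transcript. It covers chr9:110880114-110880173 of GRCm38 and is written on the Tmie strand from the RefSeq promoter table of build GRCm38.p6, with the match to a GC box, GGGCGG on either strand, in capitals.
Tmie upstream stretch: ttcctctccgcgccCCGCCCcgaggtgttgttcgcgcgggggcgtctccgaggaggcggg
Of these 60 bases 76.7% were G or C, against a median of 55% in the same window of 32851 RefSeq promoters, and 10 CG pairs were present against a median of 1. A GC box was found in 15.8% of those windows. On neither strand did the stretch hold a TATA box (TATAAA, in 2.45% of the windows), a CCAAT box (13.6%), a cAMP response element (TGACGTCA, in 0.603%), an E-box (CACGTG, in 1.75%) or the nuclear receptor motif AGGTCA (in 3.63%).

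Rnd1 was highest in the VTA and lowest in the DMS. In vehicle libraries of both sexes, the lowest, median and highest levels were 40.4, 48.7 and 56.3 CPM in the VTA (47.7 ± 4.86 CPM, SD, n = 11). They were 19.6, 21.7 and 26.2 CPM in the PFC (21.9 ± 1.60, n = 12) and 13.4, 18.3 and 26.1 CPM in the Amy (19.2 ± 4.03, n = 12). The NAc followed with 5.15, 9.37 and 14.98 CPM (9.29 ± 3.20, n = 12) and the DMS with 3.11, 4.41 and 6.14 CPM (4.51 ± 0.891, n = 12). No vehicle library of another region reached the VTA libraries, while the ranges of the PFC and Amy, of the Amy and NAc, and of the NAc and DMS overlapped.

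Tmie was lowest in the PFC and became higher over the DMS, NAc and Amy to the VTA. Its lowest, median and highest vehicle levels were 1.88, 2.37 and 3.17 CPM in the PFC (2.42 ± 0.403, SD, n = 12), 2.80, 3.86 and 7.51 CPM in the DMS (4.19 ± 1.28, n = 12) and 7.32, 9.57 and 14.2 CPM in the NAc (10.2 ± 2.17, n = 12). In the Amy they were 11.7, 19.4 and 30.0 CPM (19.9 ± 4.87, n = 12), and in the VTA 22.8, 35.5 and 48.6 CPM (34.9 ± 6.48, n = 11). Each neighbouring pair of regions in this order overlapped by at least 1 library, whereas regions further apart in the order did not overlap.

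Vxn was highest in the PFC, followed at a lower level by the Amy. It ranged from 640 to 888 CPM with a median of 789 CPM in the PFC (789 ± 74.7, SD, n = 12) and from 94.8 to 195 CPM with a median of 157 CPM in the Amy (151 ± 29.6, n = 12). In the NAc it ranged from 24.4 to 42.1 CPM with a median of 27.8 CPM (30.2 ± 5.61, n = 12), and in the VTA from 20.6 to 29.6 CPM with a median of 25.3 CPM (24.7 ± 2.91, n = 11). In the DMS its median was 13.4 CPM and its lowest level 11.6 CPM, but library FTL_285 of Female_DMS_Veh stood at 91.8 CPM, so that the mean was 20.2 ± 22.6 CPM (n = 12). The PFC did not overlap with the Amy nor the Amy with the NAc, while the NAc and VTA overlapped. The DMS overlapped with the NAc and VTA through FTL_285 alone, since the other 11 libraries of the DMS ranged from 11.6 to 16.2 CPM.

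**Figure D1:**
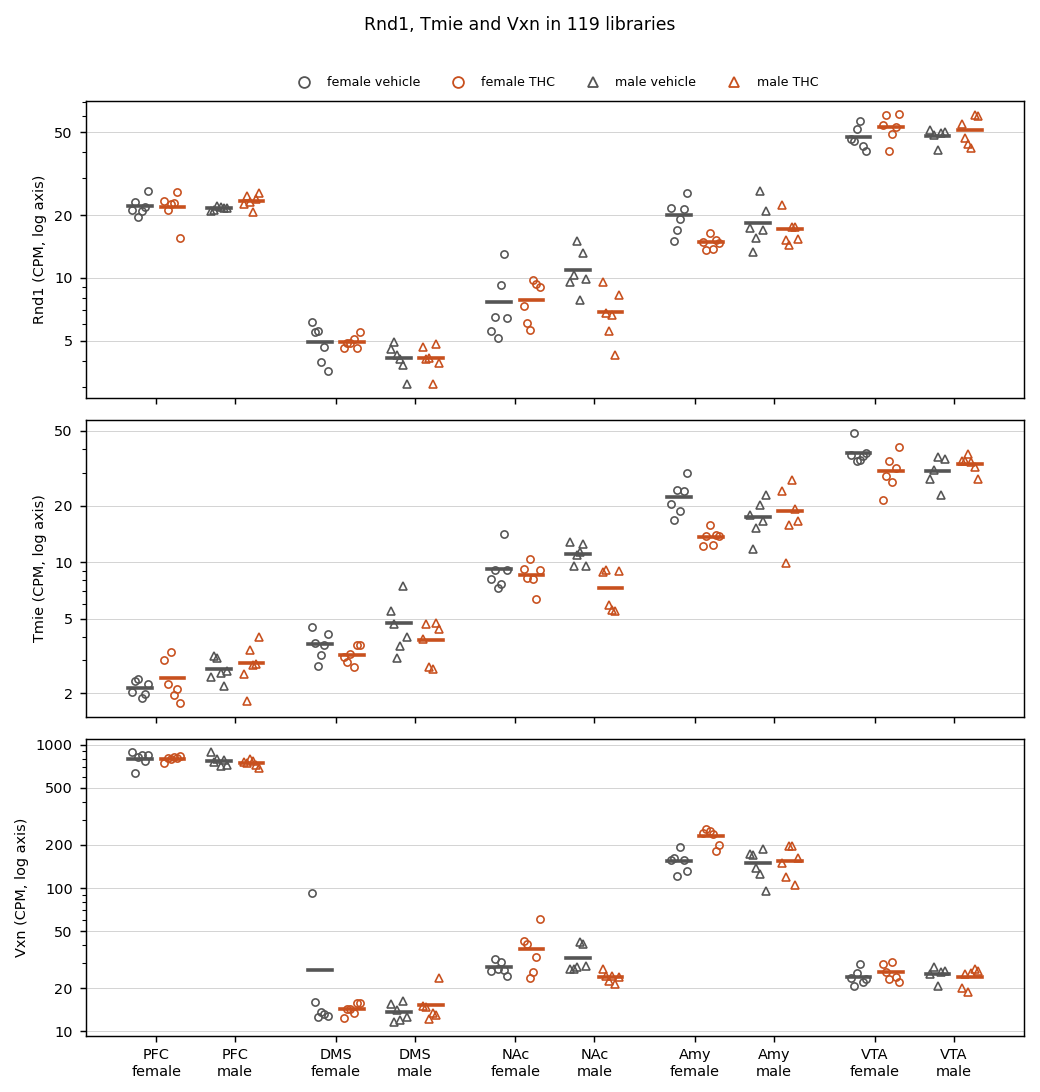
Level of each gene in every library (CPM, log axis) by region and sex, with vehicle in grey and THC in orange, circles for females, triangles for males and bars at group means. Rnd1 and Tmie are highest in the VTA and Vxn in the PFC, and the single female DMS vehicle library at 91.8 CPM of Vxn lies apart.

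Regions were tested against each other within the table they were deposited in, with edgeR's quasi-likelihood test on vehicle libraries and Benjamini-Hochberg adjustment over all genes. Such differences are common among genes. With sex as covariate, 49.4% of all genes tested were called between the DMS and PFC under the same thresholds, and the calls of all 3 genes are read against that share. Rnd1 was lower in the DMS than in the PFC by a log2 fold change of -2.27 (edgeR adjusted p = 2.48e-21). Tmie went the other way between these regions, by 0.80 (edgeR adjusted p = 5.74e-07), although the difference between their THC libraries was 0.40, at the fold threshold. Vxn showed the widest gap, with -5.32 (edgeR adjusted p = 5.38e-13), and -5.85 without library FTL_285.

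The vehicle libraries of the female Amy and male NAc had entered the choice of the genes, so the VTA was tested against the NAc in females alone and against the Amy in males alone. Of these 6 differences 5 were called by edgeR and 5 by DESeq2. In females, where 52.2% of all genes were called between the VTA and NAc, Rnd1 was higher in the VTA by 2.65 ± 0.19 on the log2 scale (SE, edgeR adjusted p = 4.82e-08) and Tmie by 2.05 ± 0.14 (SE, edgeR adjusted p = 3.15e-09). Vxn differed by -0.24 ± 0.08 (SE, edgeR adjusted p = 0.0141), which lies under the fold threshold. In males, where 40.3% of all genes were called between the VTA and Amy, Rnd1 was higher in the VTA by 1.43 ± 0.14 (SE, edgeR adjusted p = 8.26e-07) and Tmie by 0.82 ± 0.16 (SE, edgeR adjusted p = 7.43e-04). Vxn was lower in the VTA by -2.51 ± 0.16 (SE, edgeR adjusted p = 3.61e-08).

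Over both sexes the region differences are given as a description, without a test. Between the Amy and NAc, where 24.6% of all genes were called, the 3 genes were higher in the Amy, Rnd1 by 1.07, Tmie by 0.96 and Vxn by 2.31 on the log2 scale. The values between the VTA and NAc, with 52% of all genes called, were 2.38 for Rnd1, 1.74 for Tmie and -0.31 for Vxn. Those between the VTA and Amy, with 43.3% called, were 1.32, 0.79 and -2.60.

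In the female Amy, Tmie and Rnd1 were lower and Vxn was higher after THC. Tmie in vehicle libraries had a lowest, median and highest level of 16.7, 22.2 and 30.0 CPM, and in THC libraries of 12.2, 13.8 and 15.7 CPM. No THC library reached a vehicle library, and the log2 fold change was -0.72, with a 95% interval of -0.99 to -0.46. Rnd1 stood at 15.1, 20.3 and 25.5 CPM in vehicle and at 13.5, 14.8 and 16.5 CPM in THC libraries. Here 4 of 6 THC libraries lay under all vehicle libraries, with a log2 fold change of -0.45 and an interval of -0.68 to -0.21. Vxn stood at 121, 157 and 195 CPM in vehicle and at 183, 241 and 259 CPM in THC libraries. For Vxn 5 of 6 THC libraries lay above all vehicle libraries, with a log2 fold change of 0.57 and an interval of 0.33 to 0.81.

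Without FTL_344, whose sex-linked genes went against its label, these values were -0.72 for Tmie, -0.44 for Rnd1 and 0.61 for Vxn. In this contrast edgeR called 1.57% and DESeq2 3.27% of all genes tested, and the THC and vehicle levels of 4.15% did not overlap. The edgeR calls, 186 higher and 81 lower after THC, fell to 159 genes in all without FTL_344 and to 56 without FTL_342.

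Marker lists of cell types moved in the same contrast. The 15 genes of hypothalamus and medial amygdala, of which 12 could be tested, summed to 196 to 253 CPM in THC and 284.2 to 372.6 CPM in vehicle libraries. Hcrt and Nr5a1, its markers of orexin neurons and of the ventromedial hypothalamus, had at most 2 counts in any of the 12 libraries. Its other hypothalamic genes were present, with 22 to 381 counts for Otp, 9 to 83 for Sim1, 5 to 83 for Fezf1, 63 to 524 for Trh and 0 to 181 for Pmch. Of the tested genes 3 fell (Nts, Lhx6 and Cartpt, genes for neurotensin, an interneuron transcription factor and the CART neuropeptide) and 0 of the 12 had a log2 fold change above 0. The 14 genes of cortical and basolateral projection neurons summed to 1569 to 2141 CPM against 1118 to 1644 CPM, 5 of them rose, and their median log2 fold change was 0.39. The 15 markers of medium spiny neurons summed to 1046 to 1674 CPM against 656 to 1287 CPM, 1 of them rose, and their median was 0.63. Without FTL_344 the THC range of this list was 1231 to 1674 CPM, and the ranges of the hypothalamic and cortical lists were as given. Slc17a7, the vesicular glutamate transporter of cortical-type excitatory neurons, was 688 to 989 CPM in THC and 431 to 649 CPM in vehicle libraries. The choroid plexus list ranged from 38.4 to 3763 CPM in THC and from 47.1 to 1211 CPM in vehicle libraries. The part of these cell types in the differences of Rnd1, Tmie and Vxn was not tested.

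In the male NAc all 3 genes were lower after THC. Tmie had a lowest, median and highest level of 9.57, 11.1 and 12.7 CPM in vehicle and of 5.47, 7.41 and 9.12 CPM in THC libraries. Again no THC library reached a vehicle library, and the log2 fold change was -0.60, with an interval of -0.91 to -0.29. Rnd1 stood at 7.81, 10.1 and 14.98 CPM in vehicle and at 4.25, 6.67 and 9.56 CPM in THC libraries. Of the THC libraries 4 of 6 lay under all vehicle libraries, and the log2 fold change was -0.67, with an interval of -1.09 to -0.25. Vxn stood at 27.2, 28.4 and 42.1 CPM in vehicle and at 21.3, 24.2 and 27.2 CPM in THC libraries. All but 1 of its THC libraries lay under all vehicle libraries, with a log2 fold change of -0.44 and an interval of -0.70 to -0.18. The highest Vxn levels in this group of vehicle libraries, 42.1 CPM in FTL_324 and 40.8 CPM in FTL_325, came with Slc17a7 at 85.8 and 42.2 CPM, against at most 2.77 CPM in the other vehicle libraries and 8.87 CPM in the THC libraries.

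In this contrast edgeR called 0% and DESeq2 0.169% of all genes tested, and the THC and vehicle levels of 0.86% did not overlap. By edgeR 2653 genes had an unadjusted p under 0.05. All 15 medium spiny neuron markers had log2 fold changes above 0, with a median of 0.36 and 0 called, and summed to 4384 to 6845 CPM in THC against 3386 to 4995 CPM in vehicle libraries. The hypothalamic list, with 8 genes tested, had a median of -0.48 with 0 called and summed to 202 to 280.1 CPM against 244 to 299.995 CPM. Sim1, Hcrt, Nr5a1 and Otp of that list had at most 2, 4, 5 and 7 counts in any of the 12 libraries, and Lhx9, Pmch and Fezf1 had at most 11, 14 and 21. Their part in the results for Rnd1, Tmie and Vxn was not tested.

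By DESeq2 the members just inside the thresholds in the male NAc were Tmie, Vxn and Rnd1, with adjusted p-values of 0.0267, 0.0425 and 0.0482. These p-values made the choice of the genes, so they show how near the threshold it was and are no test of them. Just outside lay Necab3 at 0.0579 (log2 fold changes of 0.44 in the female Amy and -0.72 in the male NAc), Nr4a1 at 0.0644 (0.53 and 0.51) and Grik1 at 0.0651 (-0.48 and -0.67). These genes encode a neuronal calcium-binding protein, an activity-induced nuclear receptor and a kainate receptor subunit.

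The other sex of the same regions gave small differences for Rnd1 and Tmie. In the male Amy, where 0% of genes were called, Rnd1 had a median of 17.2 CPM in vehicle and 16.4 CPM in THC libraries, Tmie 17.2 and 17.9 CPM, and Vxn 155 and 156 CPM. The log2 fold changes were -0.10, 0.10 and 0.06 with 95% intervals of -0.43 to 0.23, -0.37 to 0.57 and -0.33 to 0.46, and -0.06, 0.14 and 0.05 without FTL_356. THC and vehicle libraries overlapped for all 3 genes. The hypothalamic list had a median of 0.36 there, with 0 of 12 called.

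In the female NAc, also with 0% of genes called, the log2 fold changes were 0.06 for Rnd1, -0.09 for Tmie and 0.42 for Vxn, with edgeR adjusted p-values of 0.991 or more and intervals of -0.44 to 0.56, -0.42 to 0.23 and -0.04 to 0.88. Vxn had a lowest, median and highest level of 24.4, 27.2 and 31.9 CPM in vehicle and of 23.7, 37.0 and 60.4 CPM in THC libraries, and 4 of 6 THC libraries lay above all vehicle libraries. The THC libraries at 42.7, 40.6 and 60.4 CPM had Slc17a7 at 67.6, 61.7 and 115 CPM, against at most 33.8 CPM in the vehicle libraries. The part of Slc17a7-expressing cells in this difference was not tested.

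None of Rnd1, Tmie and Vxn was called in the 8 contrasts that did not pick them. These contrasts called 0% of all genes tested by edgeR, except for 0.0127% in the female DMS, while 1.84% to 9.02% had an unadjusted p under 0.05 and DESeq2 called at most 22 genes. Of the 24 values, 2 had an unadjusted p under 0.05 by edgeR, and DESeq2 called 0. The first was Tmie in the female VTA, with a lowest, median and highest level of 34.8, 36.9 and 48.6 CPM in vehicle and of 21.6, 30.2 and 41.0 CPM in THC libraries. In that group 5 of 6 THC libraries lay under all vehicle libraries, and the log2 fold change was -0.32 (interval -0.61 to -0.03, edgeR adjusted p = 0.521). Its lowest library, FTL_363, had the hypothalamic list at 1463 CPM, against at most 452 CPM in the other female VTA libraries. Slc17a7 had a median of 25.1 CPM in the female VTA vehicle and 1.84 CPM in the THC libraries. The part of these markers in the Tmie difference was not tested. The second was Rnd1 in the male PFC, with medians of 21.7 CPM in vehicle and 23.6 CPM in THC libraries, 5 of 6 THC libraries above all vehicle libraries, and a log2 fold change of 0.12 (interval 0.02 to 0.22, edgeR adjusted p = 1.00).

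The largest difference by size was that of Vxn in the female DMS, at -0.91 with an interval of -2.16 to 0.34 (edgeR adjusted p = 0.683). It came with library FTL_285 of the vehicle group, which had Vxn at 91.8 CPM and Slc17a7 at 206 CPM, while the other vehicle libraries of that group had at most 15.9 and 2.98 CPM. Without that library the difference was 0.08. In the PFC, where Vxn is highest, its log2 fold change was -0.0015 in females and -0.06 in males, with intervals of -0.14 to 0.13 and -0.15 to 0.04.

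**Figure D2:**
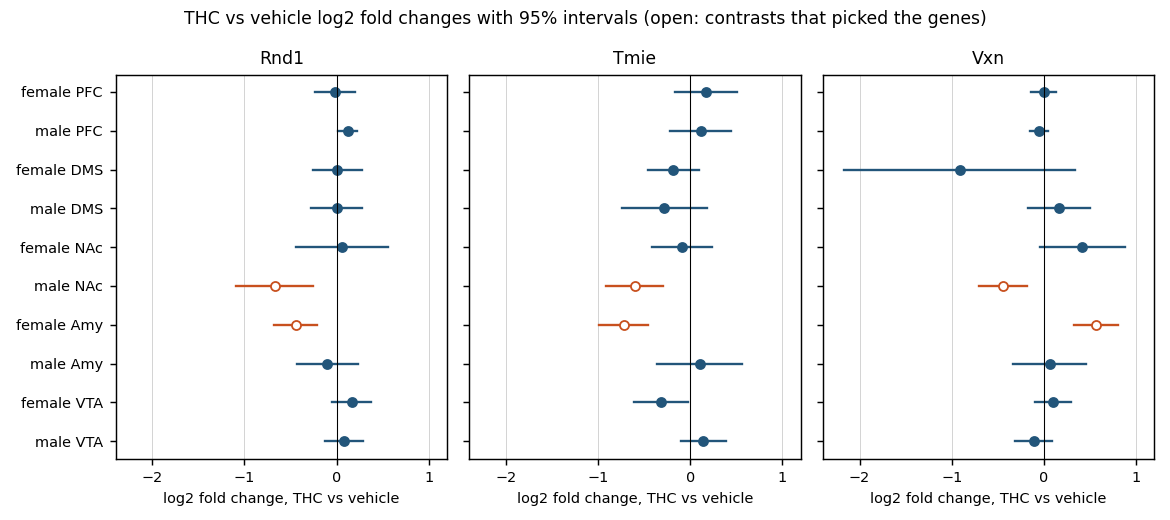
Log2 fold change of THC against vehicle with its 95% interval for each gene in the 10 region and sex groups, with open orange points for the contrasts that picked the genes and filled blue points for the others. The filled points lie between -0.32 and 0.42, except Vxn in the female DMS at -0.91, whose interval is the widest.

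Whether the response to THC differed between the sexes was asked with the sex by treatment term. In the PFC, DMS and VTA, where 0% of all genes were called by edgeR, the term was called for none of the 3 genes by edgeR or DESeq2, and 1 of the 9 values had an unadjusted p under 0.05 by edgeR. The widest values were 1.08 for Vxn in the DMS (0.09 without FTL_285) and 0.46 for Tmie in the VTA (edgeR adjusted p = 0.780). By edgeR 965, 980 and 1040 genes had an unadjusted p under 0.05 in these regions, and DESeq2 called 0, 3 and 0. In the NAc and Amy the term holds a contrast that picked the genes, so it is given without a test. Male minus female, it was -0.73 for Rnd1, -0.51 for Tmie and -0.86 for Vxn in the NAc, and 0.35, 0.82 and -0.51 in the Amy. Without FTL_344 and FTL_356 the Amy values were 0.38, 0.86 and -0.55.

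Males were also compared with females, with treatment as covariate. In the PFC, DMS and VTA none of the 3 genes was called by edgeR or DESeq2. The share of all genes called was 0.237%, 2.64% and 0.113%. Of the 9 values 3 had an unadjusted p under 0.05 by edgeR, beside 16.3%, 27.8% and 7.19% of all genes tested in these regions. In the PFC Tmie averaged 2.80 ± 0.580 CPM in males and 2.28 ± 0.462 CPM in females (SD, n = 12 each, log2 fold change 0.29, edgeR adjusted p = 0.180). In the DMS Rnd1 averaged 4.12 ± 0.593 CPM in males and 4.91 ± 0.713 CPM in females (SD, n = 12 each, log2 fold change -0.24, edgeR adjusted p = 0.0816). Tmie in the DMS averaged 4.29 ± 1.33 CPM in males and 3.44 ± 0.528 CPM in females (0.32, edgeR adjusted p = 0.0930). The Amy and NAc comparisons hold libraries that picked the genes and are given without a test. In the Amy Vxn averaged 152 ± 35.2 CPM in males and 192 ± 47.8 CPM in females, a log2 fold change of -0.30 over vehicle and THC libraries, and of -0.30 without FTL_344 and FTL_356. By group, Vxn averaged 149 CPM in male and 154 CPM in female vehicle libraries of the Amy. It averaged 155 CPM in male and 229 CPM in female THC libraries, the latter of the contrast that picked the gene.

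Within groups the genes varied with several marker lists, of neurons and of other cells. For this description the group mean was subtracted from log2 CPM in each library, and each gene was set against the mean standardized level of a marker list. Libraries of a region share its dissection, so the correlations have no p. Vxn followed the cortical and basolateral projection neuron list in the DMS (r = 0.93, n = 24), NAc (r = 0.80, n = 24) and Amy (r = 0.72, n = 24). The value was lower in the PFC (r = 0.36) and below 0 in the VTA (r = -0.65, n = 23). Without the 2 libraries farthest from the median of the list, the values were 0.71, 0.74, 0.60, 0.51 and -0.51, respectively. Vxn also had r = 0.89 with the choroid plexus list in the DMS (0.63 without the 2 farthest libraries) and r = 0.74 with the oligodendrocyte list in the PFC (0.62 without them).

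Tmie followed the hypothalamus and medial amygdala list in the Amy (r = 0.86, 0.76 without the 2 farthest libraries) and ran against the medium spiny neuron list in the DMS (r = -0.74), NAc (r = -0.81) and Amy (r = -0.81). Without the 2 farthest libraries the latter values were -0.62, -0.78 and -0.63. In the VTA Tmie had r = 0.50 with the medium spiny neuron list (0.26 without them). Rnd1 followed the hypothalamic list in the NAc (r = 0.88, 0.85 without the 2 farthest) and in the Amy (r = 0.66, 0.64 without them). Several hypothalamic genes of that list had few counts in the male NAc, as given above. In the NAc Rnd1 also had r = 0.74 with the interneuron list (0.78 without the 2 farthest), which shares Lhx6 with the hypothalamic list. With the medium spiny neuron list it had r = -0.66 there (-0.56 without them). Tmie also had r = 0.78 with the choroid plexus list in the NAc (0.68 without the 2 farthest), and Rnd1 r = -0.78 with the endothelium list in the VTA (-0.79 without them). With the astrocyte list in the VTA Tmie had r = 0.66 (0.70 without the 2 farthest). Without FTL_344 and FTL_356, the Amy values over 22 libraries were 0.77 for Vxn with the cortical list, 0.88 and -0.89 for Tmie with the hypothalamic and medium spiny neuron lists, 0.69 for Rnd1 with the hypothalamic list and 0.70 for Rnd1 with Tmie. Among themselves, Rnd1 and Tmie varied together in the Amy (r = 0.70, n = 24), with r = 0.33 over all 119 libraries. Over all libraries Vxn had r = 0.12 with Rnd1 and r = 0.06 with Tmie, and in the VTA it ran against Tmie (r = -0.66, n = 23).

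**Figure D3:**
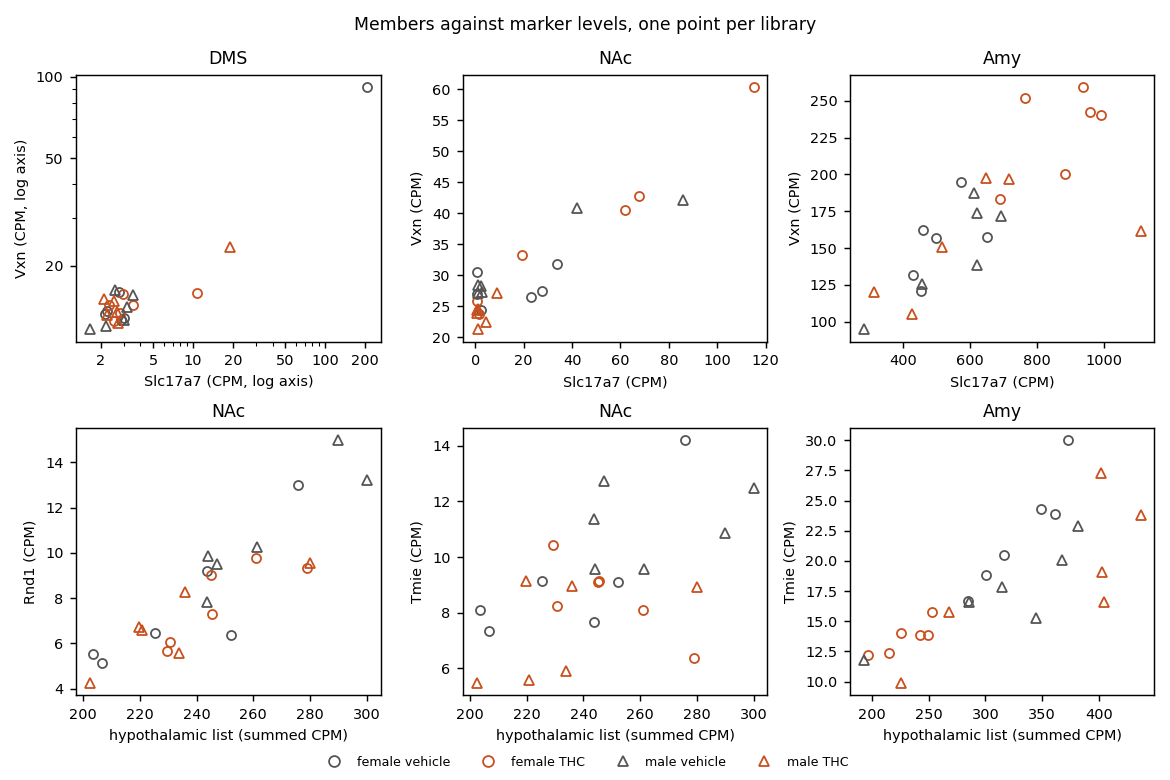
Level of a gene (CPM) against that of Slc17a7 or of the hypothalamus and medial amygdala list (summed CPM), 1 point per library, with colors for treatment and shapes for sex; the DMS axes are logarithmic. The DMS library at 206 CPM of Slc17a7 has Vxn at 91.8 CPM, and female Amy THC libraries have at most 253 CPM of the hypothalamic list with Tmie at most 15.7 CPM.

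**Figure D4:**
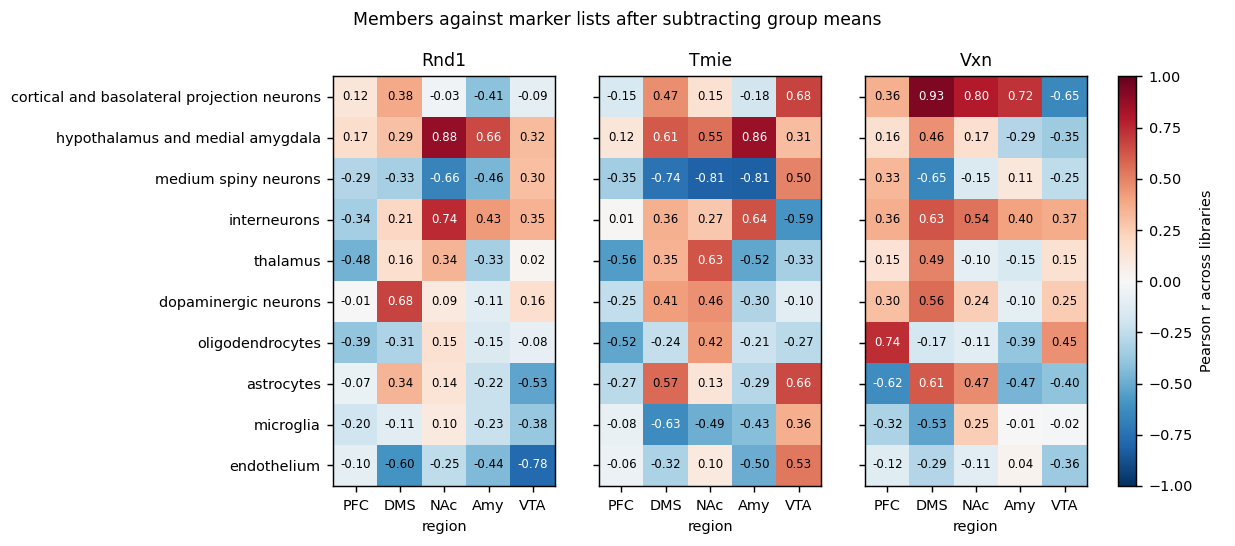
Pearson r of each gene with 10 marker lists in each region, over 23 libraries in the VTA and 24 elsewhere, after subtracting group means. Within the DMS, NAc and Amy, Vxn has its highest value among the 10 lists shown with cortical and basolateral projection neurons, and within the NAc and Amy Tmie has its lowest with medium spiny neurons.

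The other Rnd GTPases, Rnd2 and Rnd3, also fell in the female Amy, with log2 fold changes of -0.40 and -0.45 (edgeR adjusted p = 0.0443 and 0.0258). Their values were -0.03 and -0.01 in the male NAc and 0.04 and 0.06 in the male Amy, and neither was called in another THC contrast. Of the list of 28 genes of Rnd signaling, which also holds plexins and semaphorins, 28 were tested in the female Amy, where 1.57% of all genes were called, and 1 rose and 2 fell. The gene that rose was Plxnd1, a semaphorin receptor, with 0.58 (edgeR adjusted p = 0.0486), and the median of the list was 0.06 against -0.0057 for all genes. In the female NAc, male NAc and male Amy 0 of 28 were called, with medians of -0.01, -0.01 and -0.0019. Rnd2 was higher in the DMS than in the PFC by 1.31 and Rnd3 by 0.58, whereas Rnd1 was lower.

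Of 16 genes of hair cell mechanotransduction listed for Tmie, 8 were tested in the female Amy and 7 in the male NAc, and 0 were called in either, with medians of -0.07 and -0.38. By region, 6 of 8 were higher in the VTA than in the NAc and 0 lower, where 52% of all genes were called in either direction, among them Cib2, a calcium-binding subunit of the same channel complex (1.10), and Lhfpl5, a binding partner of the channel (1.32). Between the DMS and PFC the list differed from Tmie, with 4 of 8 lower in the DMS and 0 higher, beside 49.4% of all genes called. After subtracting group means, Tmie had r = 0.71, 0.62 and 0.70 with this list in the DMS, NAc and Amy. These were 0.57, 0.53 and 0.38 without the 2 farthest libraries. In the PFC and VTA Tmie had r = -0.03 and -0.05 with it. Of 12 neurogenesis factors listed for Vxn, 10 were tested in the female Amy, where Neurod6, a transcription factor of cortical excitatory neurons, rose by 0.83 (edgeR adjusted p = 0.0353), 1 of the 10 beside 1.57% of all genes. In the male NAc 0 of 7 were called. Between the DMS and PFC, 3 of the 10 tested factors were called higher in the DMS and 5 lower, beside 49.4% of all genes called. Neurod6 and Neurod2 were lower there, as Vxn was, with -6.77 and -6.49, while Dll1 was higher with 1.66. Between the Amy and NAc, 4 of 10 were called higher in the Amy and 3 lower, beside 24.6% of all genes. Neurod6 and Neurod2 were higher there, with 5.02 and 4.36, and Cdkn1b was lower with -0.53. After subtracting group means, the neurogenesis list had r = 0.79 with Tmie and -0.70 with Vxn in the VTA. Without the 2 farthest libraries these were 0.77 and -0.65. In the DMS Vxn had r = 0.80 with the list (0.53 without them).

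The genes with the most similar pattern of vehicle means over the 10 groups of region and sex were Cntnap4, Ifitm10, Ntsr1, Col8a1 and Esrrb for Rnd1. They were Minar2, Adamts9, Tap1, Cdk5rap3 and Haus7 for Tmie, and Gm36283, Map4k3, Dyrk2, D930019O06Rik and Opcml for Vxn. All had r of 0.987 to 0.997 over 10 points. Across the 119 libraries after subtracting group means, genes among the 5 closest were Nap1l5 for Rnd1 (r = 0.69, followed by Ccdc136, Polr2m, Sncb and Camk2n2), Ppm1m for Tmie (r = 0.67, followed by Gpx3, Tnfrsf8 and Marcksl1) and Prss12 for Vxn (r = 0.78, followed by Scube1, C1ql3, Rtn4rl2 and Nrn1). These values share the depth and dissection of the libraries and were chosen as the highest of 18929 genes.

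Genes next to Rnd1, Tmie and Vxn on the chromosomes were called in none of the THC contrasts in which they were tested. Beside Rnd1 lie Ddx23, a splicing helicase 0.527 kb away, and Cacnb3, a calcium channel subunit, with female Amy log2 fold changes of -0.04 and 0.20 and male NAc values of -0.06 and 0.10. On its other side Ccdc65 had 0.08 and -0.49 (edgeR adjusted p = 0.739 and 0.210), and Fkbp11 had -0.48 in the female Amy and was not tested in the male NAc. The neighbours of Tmie, Prss50 and Pth1r to one side and Tdgf1 and Lrrc2 to the other, had female Amy values of 0.07, -0.11, 0.04 and -0.18, and Prss50, Pth1r and Lrrc2 had male NAc values of 0.54, -0.27 and -0.12, while Tdgf1 was not tested there. Those of Vxn, Adhfe1, Rrs1, Mybl1 and Vcpip1, had -0.24, -0.03, 0.00 and 0.20 in the female Amy and -0.10, -0.05, -0.26 and -0.04 in the male NAc.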

How the data were processed

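The authors trimmed adapters, aligned reads to mm10 and quantified genes, and the submitters' processing notes name cutadapt 2.9, STAR 2.7.3a and RSEM 1.3.1. The deposited values are expected counts per gene symbol in 2 tables, 48 libraries of the PFC and DMS and 71 of the NAc, Amy and VTA. They were rounded here, and no column of per-library values was left out. Levels are CPM with TMM scaling over all libraries. Differences were tested with edgeR 4.0.16 (filterByExpr, TMM, robust quasi-likelihood F test, Benjamini-Hochberg adjustment over all genes tested), with DESeq2 1.42.0 at its default independent filtering as an alternative. Calls needed an adjusted p under 0.05 with a log2 fold change of 0.4 or more in either direction. Log2 CPM used a prior count of 2. The code was tested on simulated data. The members and lists were chosen with earlier results of these data known. Named besides the members are the genes called in both picking contrasts or nearest to that threshold, the 5 most similar genes on each scale (1 is not reported here), Rnd2 and Rnd3, called list genes (at most 4 per list by adjusted p), and the 2 nearest tested coding genes on each side. Within groups, 295 pairs of libraries were compared, 0 were identical, and the smallest mean chi-square per gene was 2.87. The labels do not name the mouse of a library, so p-values measure the spread between libraries. Of 190 listed genes, 1 (Myo15a) is not in the tables. Depth ranged from 3.09e+06 to 7.70e+07 counts (median 2.21e+07), and male VTA vehicle held the shallowest library.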

Additional observations from a re-analysis of the deposited data

Results flagged for a closer look

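In 5 of the 60 combinations of gene and group (3 genes in 20 groups of 5 or 6 libraries), a library lay apart from the others by Dixon's 95% criterion, which chance alone meets in about 1 group in 20. For Vxn these were FTL_285 of Female_DMS_Veh at 91.8 CPM, against 15.9 CPM in the next library, and FTL_308 of Male_DMS_THC at 23.5 CPM, against 15.01 CPM. Slc17a7 was at 206 and 19.0 CPM in these libraries, and its part in the Vxn levels was not tested. For Tmie they were FTL_313 of Female_NAc_Veh at 14.2 CPM, against 9.13 CPM, and FTL_358 of Female_VTA_Veh at 48.6 CPM, against 38.0 CPM. FTL_313 was also the highest library of its group for Rnd1, at 13.0 CPM. For Rnd1 it was FTL_371 of Male_VTA_Veh, the low library at 41.2 CPM, against 48.7 CPM in the next. FTL_371 was the shallowest of all 119 libraries, with 3.09e+06 counts, and had the highest Slc17a7 of its group, at 38.5 CPM. The methods of the study report that 1 male VTA sample was removed as an outlier, without its number. All 11 male VTA libraries with deposited counts were used here.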

How the results depend on the processing

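The region differences kept their direction under other scaling, no filter, DESeq2, THC libraries and each male VTA vehicle library left out, and those between the DMS and PFC their side of the thresholds, apart from Vxn by DESeq2 (-5.37), which gave no adjusted p. With THC libraries, Vxn between the Amy and NAc was 2.63, Rnd1 was 2.80 between the VTA and NAc and 1.73 between the VTA and Amy, and Vxn there was -2.91. In females alone Tmie between the VTA and NAc was 2.05. DESeq2 likewise gave none for Tmie in the female PFC and female DMS and for Vxn in the female DMS, its interaction and its sex difference, so these were not counted. Genes called in the female Amy (186 higher and 81 lower by edgeR) numbered 546 by DESeq2 (544 with its filtering set at 0.05) and 126 with all 4 groups in 1 fit, and their share, 1.57%, ran from 0.323% to 1.67% when 1 library was left out. They numbered 129 without FTL_333, 60 without FTL_335, 58 without FTL_339, 74 without FTL_340, 56 without FTL_342 and 159 without FTL_344. In the male NAc, with 0 by edgeR (2653 with an unadjusted p under 0.05) and 0 with any library left out, DESeq2 called 20 and, with its filtering set at 0.05, 5, where Rnd1, Tmie and Vxn had no adjusted p. In the female DMS, with 2 by edgeR, DESeq2 called 22, no filter gave 4, all groups in 1 fit 5, and leaving out FTL_285 gave 6 (0.0378%). DESeq2 called 1 gene in the female PFC, 1 in the male VTA and 3 in the female VTA, where no filter gave 1. Differences near 0 changed sign: Vxn in the female PFC without a filter (0.00068), and Rnd1 in the male DMS with DESeq2 size factors (0.0019), all groups in 1 fit (0.0032) or without FTL_308 (0.014), where its interaction was 0.0077 (-0.085 without FTL_285). Without FTL_285, Vxn was 0.075 in the female DMS and 0.063 between the sexes in the DMS, where it was -0.55 without FTL_308. Rnd1 in the PFC was 20.2 CPM by library total. Alternatives without FTL_285 or FTL_308, without both sex-discordant libraries in the Amy interaction, with 1 sex alone in the VTA comparisons, and DESeq2 filtering at 0.05 were chosen after seeing the data. Over the left-out libraries, the log2 fold change in the female Amy ran from -0.81 to -0.61 for Tmie, -0.53 to -0.36 for Rnd1 and 0.51 to 0.63 for Vxn, and in the male NAc from -0.68 to -0.52, -0.79 to -0.56 and -0.48 to -0.35. No paired analysis was possible because library numbers are unique to a library and are not shared between groups. With 6 libraries a group, depth and spread left wide intervals of the log2 fold change. They reach 0.88 for Vxn in the female NAc and run from -2.16 to 0.34 for Vxn in the female DMS.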
